A study of Rattus norvegicus with 3 samples.

Results

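Cardiomyocytes rich in natriuretic peptide transcripts were examined in nuclei from the heart apex of rats at 12 months of age. Members were chosen by their own counts. A nucleus was placed in the class when 10 cardiomyocyte genes (Tnnt2, Actn2, Mybpc3, Tnni3, Myl2, Pln, Rbm20, Cmya5, Mlip and Ldb3) together held at least 1% of its unique molecular identifiers (UMIs, 1 per captured RNA molecule), when Dcn, Pdgfra, Flt1 and Ptprb together had at most 2 UMIs, and when Nppa and Nppb together had at least 5 UMIs and at least 0.2% of its UMIs. The rule chose 846 of 24664 nuclei, of which 100 came from the WT library, 427 from the BMD library and 319 from the DMD library. The other 4239 cardiomyocytes met the first 2 conditions and missed the peptide condition, and numbered 2111, 1206 and 922 in WT, BMD and DMD. WT rats were wild type, BMD rats carried an in-frame deletion of several exons of Dmd, the dystrophin gene, and DMD rats a deletion of a single Dmd exon. No treatment was named, and each genotype was measured in 1 library of sorted nuclei from an apex that took in septum and both ventricles, so values between genotypes have no replicate check and carry no test. The libraries held 21609238, 21142346 and 19215994 UMIs, and the summed peptide-rich nuclei 350801, 2017667 and 1192692 UMIs, so that WT values were the least precise.

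Nppa encodes atrial natriuretic peptide and Nppb encodes B-type natriuretic peptide, hormones that cardiomyocytes release when the wall of the heart is stretched and that act on kidney and vessels to lower blood volume and pressure. Ventricular cardiomyocytes make both before birth, largely silence Nppa afterwards, and make both again under overload, often together with a shift of contractile proteins toward fetal forms. The markers given for these cells were themselves part of the rule, so their levels describe the class and are no check of its label. Tnnt2 (cardiac troponin T) stood at 3475, 3635 and 3857 CPM (a gene's UMIs per 1000000 UMIs summed over a class of nuclei) in the peptide-rich nuclei of WT, BMD and DMD, against 299.9, 376 and 369 CPM in nuclei outside the cardiomyocyte rule. Actn2, the alpha-actinin of the Z-disc, stood at 1180.2, 1247 and 1342 CPM against 112, 122 and 127 CPM, and Rbm20, a splicing factor of titin, at 5924, 6174 and 6478 CPM against 566, 586 and 532 CPM. None of them was tested. Among 19 markers of atrial and conduction cells, 8, 6 and 5 were at 0 in the peptide-rich nuclei. Their summed level was 2400.2, 2656 and 3339.5 CPM against 2558, 3001 and 3201 CPM in other cardiomyocytes, most of it from Pam, the enzyme that amidates peptide hormones. The list was not uniform, and Pam hides its scarcer genes in the sum. Sln and Bmp10 had 0, 6 and 0 UMIs and 0, 3 and 0 UMIs in the 3 libraries, while the atrial light chains stood higher in members. Myl7 had 5.70, 18.3 and 14.3 CPM against 1.06, 3.38 and 2.93 CPM and Myl4 28.5, 20.3 and 25.2 CPM against 2.27, 7.56 and 17.9 CPM, with Myl7 on 2, 37 and 17 UMIs in members and too scarce to be tested. For Myl4 in DMD members, a single nucleus held a large part of the UMIs, as given further on.

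Nppb and Nppa lie next to each other on the plus strand of rat chromosome 5 and are switched on in cardiomyocytes by transcription factors that include GATA4, NKX2-5, TEAD1, SRF and MEF2. The letters that such factors are known to bind are shown here because the 2 transcripts define the class and because their regulators are described further on. Both promoters were taken from RefSeq (GRCr8, 250 bases before to 50 bases after the gene start, chr5:163699758-163700057 for Nppb and chr5:163711934-163712233 for Nppa). Each line gives a window of the gene's strand, 5′ to 3′, with the matched letters in capitals.
Nppa, GATAA, chr5:163712042-163712068: ttcgctggactGATAActttaaaaggg
Nppa, CAAGTG, chr5:163712077-163712104: gctggccgccgCAAGTGacagaatgggg
Nppb, CATTCC on the minus strand, chr5:163699866-163699893: ctcagcaggcaGGAATGtgtctgataaa
Nppb, first GATAA, chr5:163699877-163699903: ggaatgtgtctGATAAatcagagataa
Nppb, second GATAA, chr5:163699888-163699914: gataaatcagaGATAAccccaccccta
Nppb, last GATAA, chr5:163699940-163699966: cccagccccagGATAAaaggcagaggc
The GATA letters (GATAA) began 131 bases before the Nppa start and 120, 109 and 57 bases before the Nppb start. The NKX2-5 letters (CAAGTG) stood 96 bases before the Nppa start, and the TEAD letters (CATTCC, also called M-CAT) 131 bases before the Nppb start, where their window overlaps that of the first GATAA. Both strands were searched. Of 33469 rat promoters of the same length, 26.5% held GATAA, 14.1% CAAGTG and 14.2% CATTCC. The T-box letters AGGTGT (13.6% of promoters) and the AP-1 letters TGANTCA (7.33%) had no exact match in these 2 windows. The same held for the SRF motif called CArG (1.64%) and the MEF2 motif (3.29%). Looser matches to any motif were not searched for. A match to letters is not a binding site, and the files hold no measure of binding.

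Peptide-rich nuclei were scarce in WT and frequent in both dystrophic libraries. Of the cardiomyocyte nuclei of WT, 4.52% were members (exact Clopper-Pearson 95% interval 3.69 to 5.47). The share was 26.1% for BMD cardiomyocytes (24.03 to 28.4) and 25.7% for those of DMD (23.3 to 28.2). The intervals here and below cover counting error only, since the spread between animals cannot be seen with 1 library per genotype. WT lay below both dystrophic libraries, and the intervals of BMD and DMD overlapped. The WT counts come from a file that pools the 3 libraries, in which BMD and DMD hold 76.1% and 92.9% of the UMIs of their own files. Whether the WT counts were reduced in it was not tested. With BMD and DMD counts also taken from that file the shares were 24.9% and 24.9%. As a share of all nuclei the class took 1.004, 6.27 and 4.04%. The shares follow from the rule and describe it. The median peptide-rich nucleus gave 0.292, 0.334 and 0.324% of its UMIs to Nppa and Nppb, and the highest 2.50, 5.68 and 4.13%. Among other cardiomyocytes, 58.6, 22.6 and 24.5% had no UMI of either peptide.

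**Figure D1:**
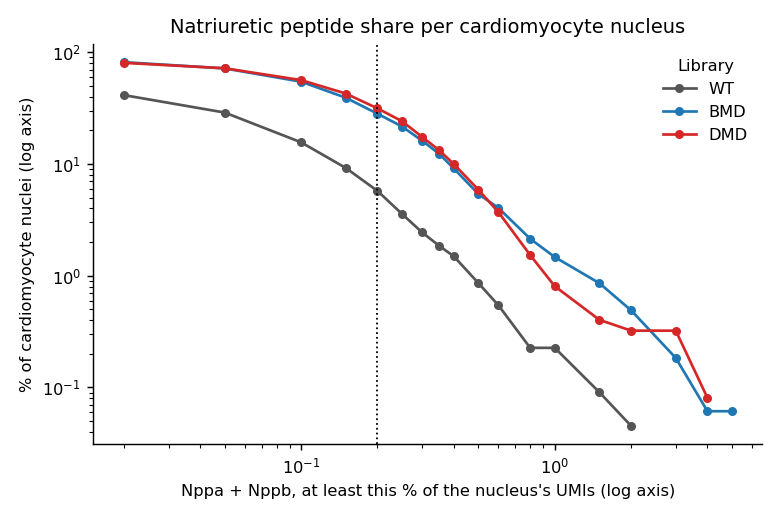
The x axis is the least share of a nucleus's UMIs held by Nppa and Nppb (percent, log axis) and the y axis the percentage of a library's cardiomyocyte nuclei at or above it (log axis), with 1 line per library and the dotted line at the 0.2% of the rule. WT lies below BMD and DMD from 0.02% to 2%, and no gap in any line marks the 0.2%.

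The class had no natural edge at its limit. Between 0.2% and 0.21% lay 6, 17 and 21 members in WT, BMD and DMD, and between 0.19% and 0.2% lay 11, 30 and 18 other cardiomyocytes. A further 27, 34 and 72 cardiomyocytes reached 0.2% with fewer than 5 UMIs, most often in DMD. With the limit at 0.5%, the share of cardiomyocytes fell to 0.814, 5.33 and 4.996%, and with every nucleus thinned to 1000 UMIs (2 or more from the peptides) it was 10.3, 39.1 and 41.5%. WT stayed lowest under both. Members were somewhat deeper than other cardiomyocytes, with median depths of 3024, 3910 and 3419 against 2768, 3649 and 2910 UMIs.

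Free RNA in the droplets can put a peptide UMI into any nucleus. The barcodes with at most 50 UMIs gave 0.0434, 0.281 and 0.191% of their UMIs to Nppa and Nppb in WT, BMD and DMD. Endothelial nuclei, which should lack both transcripts, had any UMI of them in 1.97, 15.8 and 10.05% of nuclei at median depths of 913.5, 1251.0 and 1047.0 UMIs, against 44.1, 83.3 and 81.8% of cardiomyocytes at 2776, 3731 and 3080 UMIs. The full peptide condition was met by 0 of 862 endothelial nuclei in WT, which allows a share of up to 0.427% (exact interval), by 2 of 1092 in BMD and by 1 of 1095 in DMD. If all mitochondrial UMIs of peptide-rich nuclei came from free RNA, it would give 0.00817, 0.0415 and 0.0207% of their summed UMIs as peptide transcripts. These are averages over the class, while the 0.2% of the rule applies to single nuclei. In 3, 26 and 14 members the mitochondrial share was over 50% of that in free RNA. The part of free RNA in single members was not tested. No cell barcode was shared between the peptide-rich nuclei of any 2 libraries, and 20, 12 and 12 were shared between all nuclei of WT and BMD, WT and DMD, and BMD and DMD. Doublet calls by Scrublet, a score against artificial pairs of nuclei, fell on 3, 2.34 and 5.33% of peptide-rich nuclei, against 7.15, 5.14 and 12.9% of other cardiomyocytes.

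The 2 peptides were found together in most nuclei of the class. Nppa stood at 1779, 2341 and 2222 CPM in the peptide-rich nuclei of WT, BMD and DMD and at 75.6, 306 and 306 CPM in other cardiomyocytes. Nppb stood at 2049.6, 2633 and 1575 CPM and at 259, 531 and 529 CPM. The rule sets these levels apart, so no test is given. In DMD members Nppa was the more abundant, and in WT and BMD members Nppb. The order in BMD turned, to 3481 Nppa and 3405 Nppb UMIs, without nuclei holding over 5 UMIs of other cell types' markers. Both transcripts were seen in 84 of 100, 391 of 427 and 287 of 319 members, and 13, 29 and 25 held Nppb alone against 3, 7 and 7 with Nppa alone. The Nppa share of the members' peptide UMIs was 46.5% for WT (43.8 to 49.2), 47.1% for BMD (46.1 to 48.05) and 58.5% for DMD (57.1 to 59.96). With nuclei thinned to 1000 UMIs the shares were 34.5% (30.9 to 38.3), 47.1% (45.03 to 49.1) and 50.9% (48.4 to 53.3), so that the DMD interval took in 50%. Counted by nuclei, 44, 242 and 196 members held more Nppa and 49, 156 and 110 more Nppb, so that in BMD more nuclei leaned to Nppa although the summed UMIs did not.

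A single BMD nucleus accounted for part of that difference, with 193 Nppa and 767 Nppb UMIs. Without the nucleus richest in peptide UMIs in each library, Nppb in BMD members went from 2633 to 2272 CPM and the Nppa share in BMD to 49.9%. Of all cardiomyocyte Nppa UMIs, members held 55.5, 75.4 and 73.8% for WT, BMD and DMD. For Nppb they held 29.6, 66.6 and 53.6%. Members gave 5.04, 28.6 and 27.97% of all cardiomyocyte UMIs. The rule chose members by these UMIs, so the shares describe the choice.

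**Figure D2:**
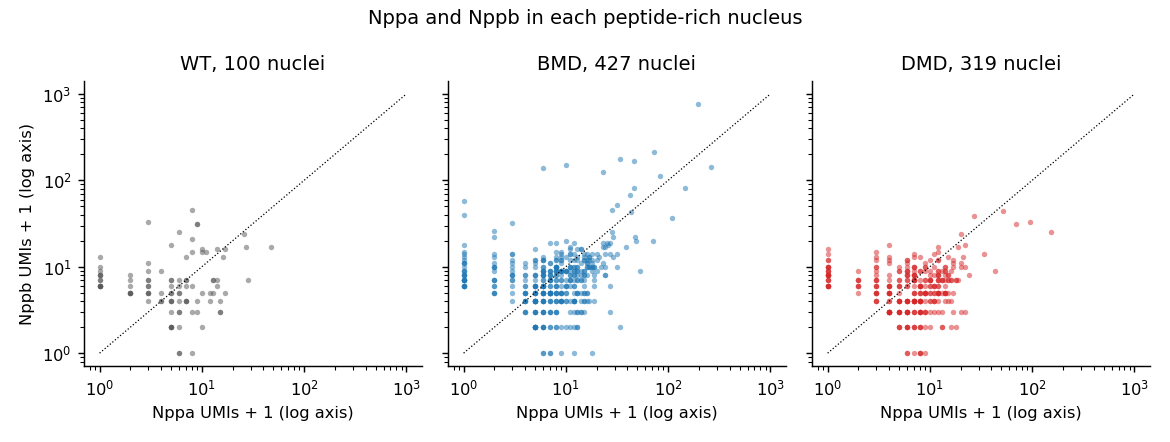
Each point is a peptide-rich nucleus, placed by its Nppa UMIs plus 1 (x) and Nppb UMIs plus 1 (y, both log axes) in 3 panels for 100 WT, 427 BMD and 319 DMD nuclei, with the dotted line where both are equal. Most nuclei hold both transcripts, and the point at the top of the BMD panel is the nucleus with 193 Nppa and 767 Nppb UMIs.

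To ask what else set these nuclei apart, UMIs were summed over the peptide-rich and over the other cardiomyocytes of each library and compared within libraries. Genes that cardiomyocytes raise under mechanical load were among those that stood higher in the peptide-rich nuclei. Of 9272 genes tested, 453 were higher (4.89%) and 284 lower (3.06%) at an adjusted p under 0.05 (edgeR's quasi-likelihood test, library as a block, Benjamini-Hochberg), and 716 of these 737 had the same direction in all 3 libraries. The 14 marker genes and both peptides of the rule were left out. Of the 22 genes on the mechanical stress list, 16 rose and 1 fell, with a median log2 difference of 0.70, against 0.01 over all genes tested. Such a shift was not particular to it. Of 60 ribosomal protein genes, a list added after the data were seen, 33 rose and 0 fell, with a median of 0.75. Of 13 mitochondrial genes, added likewise, 4 rose and 0 fell. The mechanical stress list was itself chosen with earlier results of these data known. The differences were smallest in DMD. The median log2 ratio of this list was 1.16, 0.66 and 0.33 in WT, BMD and DMD (on CPM plus 5), and over the 453 higher genes it was 0.82, 0.78 and 0.36.

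Csrp3, the muscle LIM protein of the Z-disc, stood at 1135, 1035 and 611 CPM in the peptide-rich nuclei of WT, BMD and DMD and at 309, 397 and 439.9 CPM in other cardiomyocytes. The 2 classes did not overlap, and the gap was widest in WT (log2 fold change 1.21 (SE 0.14), adjusted p = 1.68e-05, edgeR). Ankrd1, a cardiac ankyrin repeat protein that binds the titin spring and enters the nucleus, stood at 7791, 9413 and 8308 CPM against 3627, 6014 and 6365 CPM. Again the classes did not overlap (log2 fold change 0.69 (SE 0.10), adjusted p = 1.37e-04, edgeR). Ccn2, a matricellular growth factor, stood at 314, 799 and 574 CPM against 66.3, 343 and 378 CPM. Members were higher within each library, while WT members lay below other cardiomyocytes of both dystrophic libraries (log2 fold change 1.17 (SE 0.15), adjusted p = 5.26e-05, edgeR). Xirp2, an actin-binding protein of the intercalated disc and Z-disc, had 1918, 3859 and 2238 CPM against 772, 2345 and 1302 CPM, with members higher within each library and those of WT and DMD below other BMD cardiomyocytes (log2 fold change 0.90 (SE 0.10), adjusted p = 3.84e-06, edgeR).

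Some small heat shock proteins and filament proteins of the list also rose. Log2 fold changes were 1.22 for Hspb7, 1.09 for Hspb1 and 0.96 for Cryab, which keep filaments from aggregating, 0.94 for Des (desmin), 0.72 for Flnc (filamin C) and 0.89 for Xirp1. Rcan1, an inhibitor of calcineurin that calcineurin itself induces, changed by 1.18 (adjusted p from 3.84e-06 to 5.52e-04 over these 7 genes, edgeR). Fhl2, a LIM protein that restrains hypertrophic signals, was the member that fell (-0.31, adjusted p = 0.0223, edgeR). Vcl (-0.02), Synpo2l (0.11), Nrap (0.11), Bag3 (0.27) and Ccn1 (0.38) did not pass the test.

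**Figure D3:**
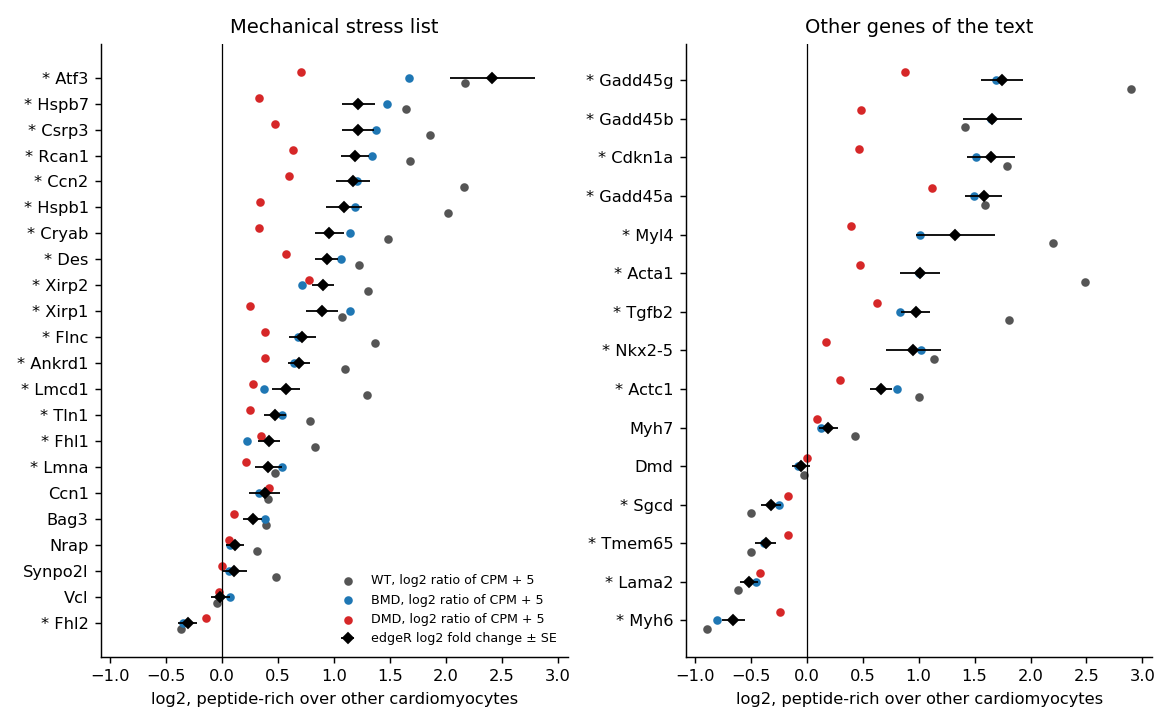
Log2 difference between peptide-rich and other cardiomyocytes (x axis) for the genes of the mechanical stress list (left) and other genes of the text (right). Diamonds are the edgeR log2 fold change with its SE over 3 libraries, coloured points the log2 ratio of CPM plus 5 within each library, and an asterisk marks adjusted p under 0.05. DMD points lie nearest 0 for most genes that were higher.

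The count of higher genes rested on the pairing within libraries and on BMD, the library with the most members. Without BMD, 144 genes were higher and 84 lower, without WT 286 and 191, and with no library block 0 in either direction (edgeR, with 607 and 331 at an unadjusted p under 0.05). DESeq2's Wald test called 133 higher and 73 lower. Of the mechanical stress list, 13 genes rose without BMD, 12 without WT and 9 by DESeq2's Wald test, by which Csrp3, Ccn2, Hspb7, Hspb1, Cryab, Lmna, Tln1 and Fhl2 of the list missed the threshold, as did Acta1 and Tgfb2. With nuclei thinned to 1000 UMIs, 10 of 21 genes of the list rose, with a median log2 difference of 0.37, and Flnc, Xirp1, Lmcd1, Lmna and Tln1 lost their calls. With mitochondrial UMIs at 6075, 7981 and 9279.8 CPM in members and 4352, 5846 and 9346 CPM in other cardiomyocytes, the nuclei over 0.5% mitochondrial UMIs were left out in a further run, where 438 genes were higher and 262 lower and 16 of 21 genes of the list rose.

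The genes highest in the peptide-rich nuclei, relative to other cardiomyocytes, were led by Atf3, a stress-induced transcription factor, and held all 3 Gadd45 genes, which sense growth arrest and DNA damage, and Cdkn1a, the cell-cycle inhibitor p21. Atf3 stood at 28.5, 24.3 and 10.1 CPM in WT, BMD and DMD against 2.42, 4.18 and 4.23 CPM, on 10, 49 and 12 UMIs in members (log2 fold change 2.41 (SE 0.38), adjusted p = 3.25e-04, edgeR). The 2 classes did not overlap, although a single nucleus gave 50% of the WT UMIs. Gadd45g stood at 439, 794 and 268 CPM against 54.5, 242 and 144 CPM, and every member library lay above every library of the other class (log2 fold change 1.74 (SE 0.19), adjusted p = 4.99e-06, edgeR). Gadd45g was seen in 38, 61.8 and 43.3% of members. Gadd45a (1.58, adjusted p = 3.84e-06) and Gadd45b (1.66, adjusted p = 3.52e-04, both edgeR) rose as well, and Cdkn1a stood at 74.1, 66.4 and 10.9 CPM against 17.9, 20.1 and 6.51 CPM (log2 fold change 1.65 (SE 0.21), adjusted p = 5.04e-05, edgeR). For Cdkn1a the classes overlapped, since DMD members, on 13 UMIs, lay below other cardiomyocytes of WT and BMD. The 12 genes with the largest increase also held Cox6b1, a subunit of cytochrome c oxidase. This was 1 of 2 entries with this symbol, the scarcer of them in members. The ribosomal genes Rps13, Rps27l and Rpl23a, whose reads near-identical copies may share, were among the 12 too. So were Med7 of the Mediator complex, Cdc34, a ubiquitin-conjugating enzyme, and the uncharacterised LOC100362453. Their log2 fold changes ran from 1.58 to 1.78 apart from Cox6b1, which was higher. Without BMD 7 of these 12 genes had enough UMIs to be tested and 6 passed, all but Rpl23a, while Atf3, Gadd45b, Cdc34, Med7 and Rps13 were not tested. Without WT and without DMD 9 were tested and 9 passed, while Atf3, Med7 and Rps13 were not tested. Atf3 thus had too few UMIs to be tested whichever library was left out. DESeq2's Wald test called 9 of 12, without Cdc34, Med7 and Rps13. With nuclei thinned to 1000 UMIs 2 were tested, of which Gadd45g passed and Gadd45a lost its call.

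Contractile genes of the fetal type were split. Of 6 genes tested, 3 rose and 1 fell, beside 4.89% higher and 3.06% lower over all genes, and 2 rose and 1 fell by DESeq2's Wald test. Acta1, skeletal actin, stood at 157, 367 and 295 CPM in the peptide-rich nuclei of WT, BMD and DMD and at 23.9, 180.1 and 211 CPM in other cardiomyocytes (log2 fold change 1.01 (SE 0.18), adjusted p = 9.57e-04, edgeR). Members were higher in each library and WT members were below the other cardiomyocytes of both dystrophic libraries. Actc1, cardiac actin, stood at 1083, 2051 and 1511 CPM against 539, 1173 and 1232 CPM (log2 fold change 0.67 (SE 0.10), adjusted p = 2.09e-04, edgeR), with the same overlap. Myl4, the atrial light chain, rose on few UMIs (1.33, adjusted p = 0.0208, edgeR), with 10, 41 and 30 UMIs in members. Its call was lost without the nucleus with most peptide UMIs in each library and without nuclei over 5% mitochondrial UMIs, and a single nucleus held 43.3% of its UMIs in DMD members. Myh6, the fast alpha myosin heavy chain that adult rat ventricle uses, was the gene that fell, with 1394, 893 and 2168 CPM against 2587, 1559 and 2564 CPM (log2 fold change -0.66 (SE 0.10), adjusted p = 3.52e-04, edgeR). Members were lower in each library, most so in WT and BMD. Myh7, the slow beta chain, had 2164, 2659 and 2327 CPM against 1603, 2434 and 2177 CPM and did not pass the test (0.19, adjusted p = 0.184, edgeR).

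Of 17 sarcomere genes tested, 3 rose, against 4.89% over all genes. These were Tnnc1 (troponin C, 1.08), Actc1 and Myl3 (ventricular light chain, 0.35). The other 14 did not pass, Tpm1 (0.09) and Nexn (-0.04) among them. Of 12 immediate early and heat shock genes, 4 rose, which were Atf3, Myc (1.31), Hsp90aa1 (1.03) and Jun (0.53), while Fos (-0.09) and Egr1 (0.02) did not pass. DESeq2's Wald test called 1 of the 12, and 1 of 7 tested rose without BMD, 2 of 10 without WT, 4 of 10 without DMD and 0 of 6 with nuclei thinned to 1000 UMIs. The call of Myc was lost by DESeq2, and without BMD Myc had too few UMIs to be tested.

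Among secreted factors, peptide-rich nuclei held more Tgfb2 and Ccn2 and less Angpt1. Tgfb2, a ligand of the TGF-beta receptors, stood at 399, 948 and 710.2 CPM in WT, BMD and DMD against 111, 528 and 457 CPM (log2 fold change 0.98 (SE 0.13), adjusted p = 6.46e-05, edgeR). Angpt1, the ligand that keeps the endothelial receptor TIE2 active, stood at 285, 389 and 311 CPM against 981, 862 and 585 CPM (log2 fold change -1.24 (SE 0.11), adjusted p = 2.40e-06, edgeR). For Angpt1 every library of peptide-rich nuclei was below every library of other cardiomyocytes, and 37, 33.96 and 32.6% of members had a UMI against 64.5, 54.1 and 45.9% of the others. Igf1 (-1.32, adjusted p = 0.0151) and Fstl1 (-0.96, adjusted p = 0.0471, both edgeR) also fell, both at under 35 CPM. Both calls were lost by DESeq2's Wald test, without DMD and without nuclei over 0.5% mitochondrial UMIs. With nuclei holding other cell types' markers left out, or with doublets left out, Igf1 had too few UMIs to be tested and Fstl1 did not pass. These genes are also made by fibroblasts, whose markers are given below. Vegfa (0.02) did not pass. In all, 2 of 12 secreted factors tested rose and 3 fell, beside 4.89% and 3.06% over all genes, and by DESeq2's Wald test 0 rose and 1 fell.

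Among the factors that act on the peptide promoters, Nkx2-5, Ankrd1 and Hdac5 stood higher and Hdac9 and Zfpm2 lower in the peptide-rich nuclei. Of 21 regulators tested these 3 rose and 2 fell, beside 4.89% higher and 3.06% lower over all genes, with a median log2 difference of -0.09. Nkx2-5 stood at 37.1, 29.7 and 19.3 CPM in the peptide-rich nuclei of WT, BMD and DMD against 14.1, 12.1 and 16.6 CPM (log2 fold change 0.95 (SE 0.25), adjusted p = 0.0174, edgeR), with members higher in each library and little difference in DMD. Its call was lost without WT, without BMD, by DESeq2's Wald test and against other cardiomyocytes with 0 peptide UMIs. By DESeq2's Wald test 1 regulator rose and 1 fell, without WT 1 and 1, and without BMD 1 and 0. Hdac5, a histone deacetylase that leaves the nucleus under hypertrophic signals, rose (0.51, adjusted p = 0.0458, edgeR). Its call was lost under most alternatives, among them DESeq2's Wald test, doublets left out, nuclei holding other cell types' markers left out and nuclei thinned to 1000 UMIs. Hdac9, of the same deacetylase class, fell (-0.46, adjusted p = 0.00138), as did Zfpm2, the GATA4 partner FOG2 (-0.31, adjusted p = 0.0203, both edgeR). Gata4 (0.07), Tead1 (-0.03), Srf (0.25), Mef2c (-0.21) and Tbx5 (-0.23) did not pass. Of 7 genes that process, receive or degrade the peptides, 0 passed in edgeR or in DESeq2, and 2, Corin and Pcsk6 (a convertase that activates corin), had an unadjusted p under 0.05 in edgeR. Both were called lower with DESeq2 size factors, without DMD and with doublets left out, and at 0.5% peptide UMIs 3 of the 7 were. Corin, the protease that cuts pro-ANP, had 1405, 1415 and 1483 CPM against 1758, 1695 and 1618 CPM (-0.25, adjusted p = 0.0602, edgeR), and Npr3, the clearance receptor, 0.07.

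Genes of metabolism and of the membrane complex around dystrophin were read against the 4.89% higher and 3.06% lower over all genes, with 2 higher and 2 lower of 20 fatty acid genes, 2 higher of 14 glucose genes, and 1 higher and 2 lower of 16 genes of the dystrophin complex. DESeq2's Wald test called 1 higher and 1 lower, 1 higher, and 1 higher and 1 lower in these lists, in that order. Angptl4, Ppara, Aldoa and Sgcd were no longer called by it. With nuclei thinned to 1000 UMIs 0 of 14 glucose genes passed. Of the 20 fatty acid genes, Angptl4 (1.09), a lipase inhibitor, and Fabp3 (0.58), which carries fatty acids, rose, while the regulators Ppargc1a (-0.43, adjusted p = 0.00255) and Ppara (-0.36, adjusted p = 0.0233, both edgeR) fell. Of 14 glucose genes, Ldha (0.87) and Aldoa (0.66), both glycolytic, rose and none fell. Dmd itself stood at 15878, 19437 and 18711 CPM against 16111, 20488 and 18726 CPM, with no change that passed the test (-0.05, adjusted p = 0.758, edgeR). A count over the whole gene does not check the deletions, which take out part of it. Of 16 genes of the dystrophin complex, Dag1 (dystroglycan) rose, from 52.95, 39.99 and 37.4 to 94.1, 82.8 and 63.7 CPM in WT, BMD and DMD (log2 fold change 0.89 (SE 0.13), adjusted p = 2.22e-04, edgeR), and Lama2, the laminin that dystroglycan binds, and Sgcd, delta-sarcoglycan, fell. Lama2 had 2292, 2880.1 and 3098 CPM against 3506, 3951 and 4144 CPM (log2 fold change -0.51 (SE 0.08), adjusted p = 3.55e-04, edgeR), with no overlap between the classes, and Sgcd -0.32, adjusted p = 0.0217 (edgeR).

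Few genes of calcium handling and of cell contact passed the test. Against the 3.06% called lower over all genes, 2 of 14 and 1 of 14 were, and these 3 calls were lost without WT and without BMD. Of the 14 calcium handling genes, Cacna1c, the pore of the L-type channel, fell (-0.33, adjusted p = 0.0105), as did Dhrs7c (-0.61, adjusted p = 0.0402, both edgeR), while Ryr2 (-0.15) and Atp2a2 (-0.16), the release channel and the pump of the sarcoplasmic reticulum, did not pass. Of 14 potassium and pacemaker channels, Kcnj3 fell (-0.40, adjusted p = 0.0108, edgeR). Of the 6 atrial and conduction markers that could be tested, Myl4 and the T-type channel Cacna1g (0.70, adjusted p = 0.00232, edgeR) rose and Kcnj3 fell, beside 4.89% higher over all genes. Of 14 genes of the intercalated disc, Tmem65, which holds connexin 43 at the disc, was the gene that fell, with 328, 215 and 229 CPM in WT, BMD and DMD against 465, 282 and 258 CPM (log2 fold change -0.37 (SE 0.09), adjusted p = 0.0162, edgeR). Members were lower within each library, and WT members were above both classes of the dystrophic libraries. The Tmem65 call was also lost by DESeq2's Wald test and with nuclei thinned to 1000 UMIs. The calls of Tmem65, Sgcd, Cacna1c, Dhrs7c, Kcnj3, Ppara, Fhl2, Hdac5, Zfpm2 and Myl3 were lost without WT and also without BMD, that of Jun without WT, and those of Ppargc1a, Hdac9, Myl4, Angptl4, Aldoa and Hsp90aa1 without BMD. Gja1, connexin 43, had 729.8, 689 and 704 CPM against 731, 691 and 660.0 CPM and did not pass (0.01, adjusted p = 0.975, edgeR).

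The genes with the largest decrease were scarce, and some mark other cell types. The 12 lowest were St8sia4, Klhl29, Rab27b, Pecr, Gucy1a2, Kcnt2, Bnc2, Eps8, Colec12, Loxl1, F13a1 and Chn2, with log2 fold changes from -1.99 to -1.62 and at most 28.3 CPM in other cardiomyocytes. F13a1 is known from macrophages, and Bnc2 and Loxl1 from fibroblasts. Their calls were fragile. DESeq2's Wald test called 1 of the 12, Gucy1a2, as did edgeR with members at 0.5% or more, and with Scrublet doublets left out 5 had enough UMIs to be tested and 2, Pecr and Rab27b, passed. Without BMD 9 were tested and 6 passed, without WT 8 of 8 and without DMD 7 of 8. Summed over 10 fibroblast markers, peptide-rich nuclei held 214, 152 and 340.4 CPM in WT, BMD and DMD against 269.9, 221 and 645 CPM in other cardiomyocytes, with Gsn the most abundant in members, and over 9 macrophage markers 79.8, 88.7 and 106 against 124, 127 and 193 CPM. Of 7 fibroblast markers tested, 4 fell and 0 rose, and of 6 macrophage markers 1 fell and 0 rose, beside 3.06% lower over all genes. The fibroblast count was 1 by DESeq2's Wald test, 2 with doublets left out, 1 without nuclei over 0.5% mitochondrial UMIs and 2 without BMD or without DMD, and the macrophage count was 0 by DESeq2's Wald test, with doublets left out and without DMD. The 9 endothelial markers summed to 174, 167 and 241 against 148, 189 and 265 CPM, with Kdr the most abundant. The 7 mural markers summed to 105, 101 and 93.1 against 90.5, 106 and 109 CPM, with Cspg4 the most abundant. Beside the 4.89% higher over all genes, of 4 mural markers tested 1 was higher, Cspg4 (0.51, adjusted p = 0.0231, edgeR), a call lost without WT, without BMD and by DESeq2, and of 6 endothelial markers 1 was lower, Tek (-1.04, adjusted p = 0.0463, edgeR), a call lost without any 1 of the 3 libraries. When nuclei with over 5 UMIs of other cell types' markers were left out, 359 genes were higher and 232 lower. Of the 12 lowest genes only 3 then had enough UMIs to be tested, and Rab27b and Pecr, a peroxisomal reductase, were called. Markers of lymphoid cells (3 tested), Schwann cells (1) and lymphatic endothelium (2) gave 1 lower call and 0 higher, in lymphatic endothelium. In WT, BMD and DMD members 1, 0 and 1 of the fibroblast, 3, 0 and 1 of the macrophage and 3, 0 and 0 of the endothelial markers were at 0. Of the mechanical stress list 15 of 21 rose there, and Myh6, Lama2, Sgcd and Tmem65 were called lower there too.

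The same genes were followed across 4 classes of cardiomyocyte nuclei in order of peptide content, namely those with 0 peptide UMIs, those with some but below the rule, members under 0.4% and members at 0.4% or more. The last class held 32 WT, 147 BMD and 104 DMD nuclei. Ankrd1 went through 3082, 4198, 6129 and 11659.9 CPM in WT, 5796, 6058, 7328 and 13462 CPM in BMD and 6180.5, 6410.1, 7380.3 and 11162 CPM in DMD, a rise at each step in each library. Csrp3 rose at each step as well, to 1935 CPM in WT and 1858 CPM in BMD, but to 738 CPM in DMD. Acta1 went through 17.1, 31.01, 134 and 209 CPM in WT, so that WT nuclei richest in the peptides came near the 204 CPM of DMD nuclei without them. Ccn2 and Xirp2 did not follow this order in WT, where the top class, with 256 and 1376 CPM, lay below the class before it, although the counting intervals of Ccn2 overlapped. Xirp2 in BMD also did not rise at the last step.

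Myh6 fell at each step in each library, through 3049.7, 2101, 1544 and 1044 CPM in WT, 2162, 1437, 979 and 726 CPM in BMD and 3107, 2432, 2265 and 1869 CPM in DMD. DMD nuclei with the most peptide thus kept more Myh6 than WT nuclei of the same class. Lama2 fell at each step too, through 3619.6, 3386, 2616 and 1537 CPM in WT, 4406, 3859, 3089 and 2475 CPM in BMD and 4478, 4062, 3244 and 2649 CPM in DMD. Sgcd did the same, and Tmem65 fell at each step in WT and BMD but not in DMD, where it went through 269, 255, 226 and 239 CPM. The classes were formed on peptide UMIs within a nucleus, and these steps are a description with no test.

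**Figure D4:**
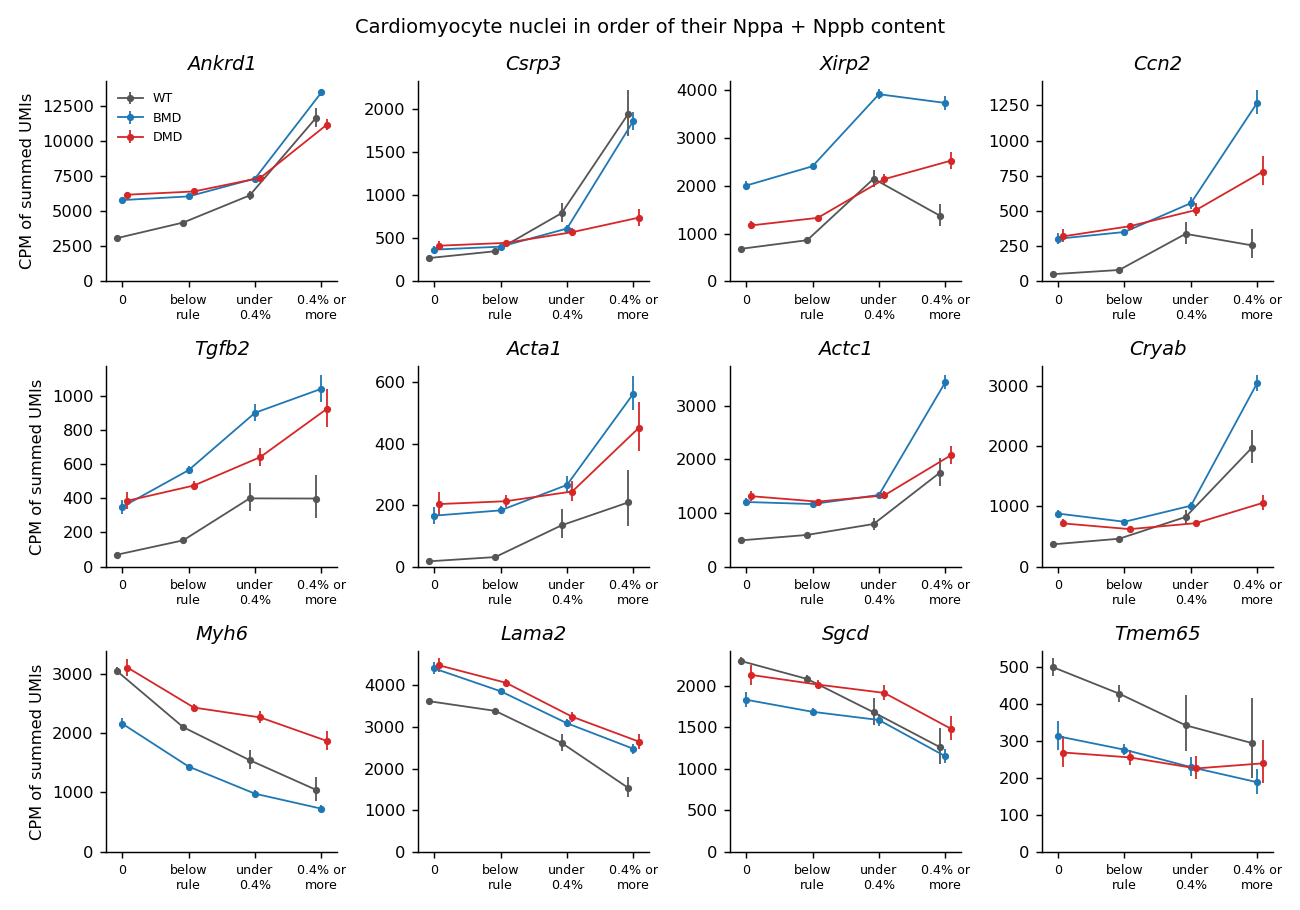
CPM of UMIs summed over nuclei (y axis, from 0) in 4 classes of cardiomyocyte nuclei ordered by peptide content (x axis: 0 UMIs, some but below the rule, members under 0.4% of UMIs, members at 0.4% or more), with 1 line per library and exact Poisson 95% intervals. Ankrd1, Csrp3 and Acta1 rise and Myh6, Lama2 and Sgcd fall from the first to the last class in all 3 libraries.

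Within the peptide-rich nuclei, BMD and DMD were then set beside WT. Acta1, Ccn2, Tgfb2 and Ankrd1, shown with their values known beforehand, stood above WT in both dystrophic libraries inside the class and outside it, with the smaller ratios inside. For Ankrd1 in DMD members this did not hold at 0.5% peptide UMIs, where the log2 ratio was -3.31e-05 on CPM plus 5. With 1 library per genotype these are ratios of values with intervals for counting error, not tests. Both ratios share the WT library, so a stray WT value would enter both. At least 2-fold differences (on CPM plus 5) were seen for 135 of 6122 genes higher (2.21%) and 56 lower (0.915%) in BMD, and for 83 of 4845 genes higher (1.71%) and 84 lower (1.73%) in DMD. In other cardiomyocytes 114 of 9582 genes (1.19%) were at least 2-fold higher and 69 lower (0.72%) in BMD, and 208 of 9423 higher (2.21%) and 89 lower (0.944%) in DMD. The median log2 ratio of the mechanical stress list inside the class was 0.06 for BMD and -0.07 for DMD, against 0.60 and 0.50 in other cardiomyocytes, and the medians over all genes were -0.05 and -0.07 inside and -0.08 and -0.02 outside. The list went both ways inside the class. Of its genes, 12 of 22 stood above WT in BMD members and 9 of 21 in DMD members, against 17 of 21 and 18 of 21 outside, and over all genes 2744 of 6122 and 2109 of 4845 inside and 3749 of 9582 and 4428 of 9423 outside. At least 2-fold higher were 4 of 22 of the list in BMD members and 5 of 21 in other BMD cardiomyocytes, and 1 of 21 and 3 of 21 for DMD.

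Acta1 stood at 157, 367 and 295 CPM in the peptide-rich nuclei of WT, BMD and DMD and at 23.9, 180.1 and 211 CPM in other cardiomyocytes. Its log2 ratio over WT was 1.23 (0.83 to 1.65) in BMD members and 2.91 (2.67 to 3.17) in other BMD cardiomyocytes, a difference of -1.69 (-2.15 to -1.22). For DMD the ratios were 0.91 (0.50 to 1.35) and 3.14 (2.89 to 3.4022), a difference of -2.23 (-2.71 to -1.75). WT members were thus the lowest of the 3 inside the class but much nearer to the dystrophic libraries than outside it. Tgfb2 behaved alike, with BMD ratios of 1.25 (1.0002 to 1.51) inside and 2.26 (2.14 to 2.38) outside. Ccn2 had BMD ratios of 1.35 (1.07 to 1.64) and 2.37 (2.22 to 2.53). For Ankrd1 the ratios were 0.27 (0.21 to 0.33) and 0.73 (0.71 to 0.75) in BMD and 0.09 (0.03 to 0.15) and 0.81 (0.78 to 0.84) in DMD. Txnip, an inhibitor of thioredoxin and glucose uptake, had BMD ratios of 0.71 (0.42 to 1.02) and 2.48 (2.35 to 2.61), although a single nucleus gave 28.7% of the UMIs of WT members. At 0.5% peptide UMIs, with 18 WT members, its ratio inside the class reversed, to -0.0498 in BMD and -0.58 in DMD on CPM plus 5. The DMD ratios of Tgfb2 and Ccn2 were also smaller inside, with differences of -1.22 (-1.50 to -0.93) and -1.64 (-1.97 to -1.31).

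Genes of the mechanical stress list lay on both sides of WT in DMD members, with 1 of 21 at least 2-fold higher and 1 at least 2-fold lower. Csrp3 in DMD members lay below WT members, with a log2 ratio of -0.89 (-1.07 to -0.71), whereas outside the class DMD lay above WT at 0.51 (0.41 to 0.61). Hspb7, a small heat shock protein of heart muscle, stood at 396, 365 and 125 CPM in WT, BMD and DMD members, a DMD ratio of -1.67 (-2.01 to -1.32). Cdkn1a, which is not on the list, was at -2.77 (-3.85 to -1.75) on 13 UMIs in DMD. Xirp2 was highest in BMD members, with a ratio of 1.01 (0.89 to 1.12) in BMD and 0.22 (0.10 to 0.35) in DMD. By the mean of CPM over nuclei the DMD ratio of Xirp2 turned to -0.015. Tmem65 was lower than WT in both dystrophic libraries, inside the class at -0.61 (-0.91 to -0.30) and -0.52 (-0.84 to -0.19) and outside it at -0.72 (-0.81 to -0.63) and -0.85 (-0.96 to -0.74). Inside the class the interval of Gja1 took in 0 for both, at -0.08 (-0.28 to 0.12) and -0.05 (-0.25 to 0.16). Dmd itself was slightly higher than WT, at 0.29 (0.25 to 0.33) in BMD and 0.24 (0.19 to 0.28) in DMD.

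**Figure D5:**
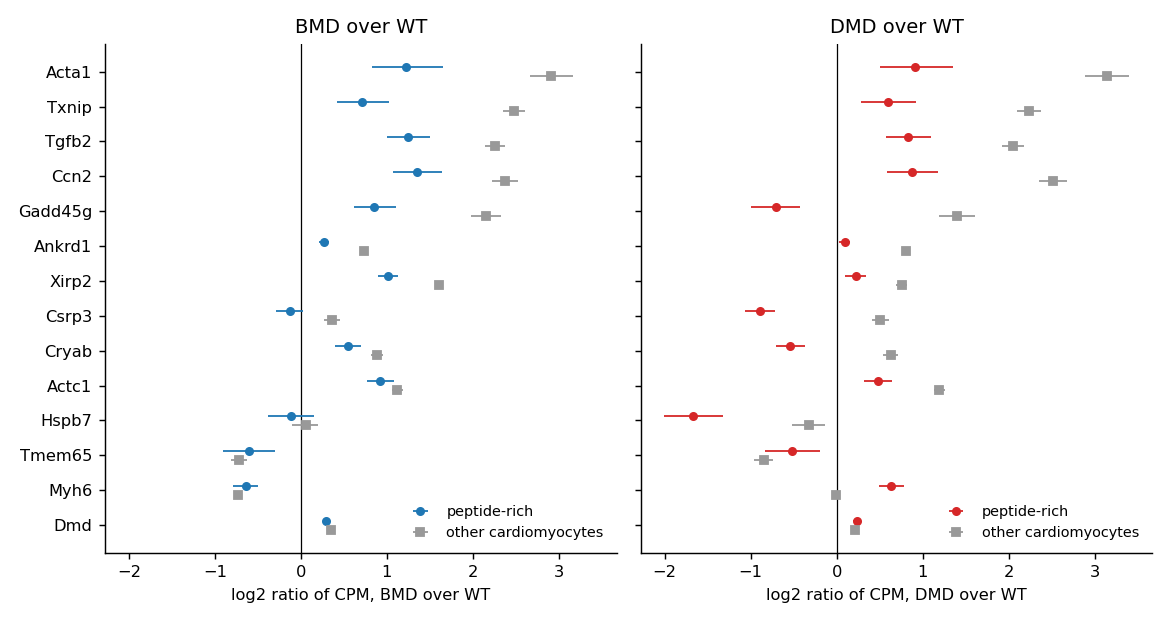
Log2 ratio of CPM over WT (x axis) for BMD (left) and DMD (right), in peptide-rich nuclei (coloured circles) and other cardiomyocytes (grey squares), with 95% intervals for counting error only and 1 library per genotype. For Acta1, Txnip, Tgfb2 and Ccn2 the circles lie nearer 0 than the squares in both panels, and those of Txnip turn below 0 when members hold at least 0.5% peptide UMIs.

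Among 5282 genes with at least 100 UMIs over all members, the rule for named genes gave Vegfb, Sntb2, Tceal7, Ccdc3, Lrrc7 and Pofut2 as furthest above WT in both dystrophic libraries. All had 4 or fewer UMIs in WT members and so reached 100 UMIs through BMD and DMD, the libraries where they are high. Their place in the order follows in part from that filter and is a description. Vegfb, a growth factor of the VEGF family, had 3, 126 and 78 UMIs in WT, BMD and DMD members and log2 ratios of 2.87 (1.29 to 5.17) and 2.93 (1.33 to 5.24), beside 0.86 (0.58 to 1.14) and 1.01 (0.70 to 1.32) outside the class. Sntb2, a syntrophin that binds dystrophin, had 2, 63 and 41 UMIs, and ratios of 2.45 (0.54 to 5.53) and 2.59 (0.65 to 5.69), beside 0.27 (-0.06 to 0.59) and 0.81 (0.47 to 1.14) outside. Lrrc7 lay below WT in other BMD cardiomyocytes, at -0.40 (-0.60 to -0.21), the opposite direction. Ccdc3 had 1 UMI in WT members and intervals from 0.08 to 7.99 in BMD. At 0.5% peptide UMIs the BMD ratio inside the class reversed for Lrrc7 (-0.24) and Ccdc3 (-0.43), on CPM plus 5. The genes furthest below WT were Gpr63, Kcnh2, Tmem106b, Rps28, Gxylt2 and Kxd1. Of these, Gxylt2 lay above WT in other BMD cardiomyocytes, at 0.99 (0.64 to 1.36). In BMD members it turned to 0.083 at 0.5% peptide UMIs, on CPM plus 5. Gpr63, a G protein-coupled receptor, had 33, 37 and 31 UMIs and ratios of -2.36 (-3.08 to -1.64) and -1.86 (-2.61 to -1.10), beside those outside the class of -2.04 (-2.34 to -1.75) and -2.16 (-2.56 to -1.79). Kcnh2, the channel of the rapid delayed rectifier current, had 29, 55 and 31 UMIs and ratios of -1.60 (-2.27 to -0.90) and -1.67 (-2.45 to -0.89), against -0.37 (-0.63 to -0.10) and -0.94 (-1.31 to -0.57) outside.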

How the data were processed

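Nuclei sorted from rat heart apex were measured in 3 libraries. Per the labels and the study's methods, the authors made the deposited UMI count matrices with Cell Ranger on rn6 from a 10x 3′ kit (v3.1). The study's text also names a 10x 5′ chemistry, and which of them was used was not settled here. Per the file headers, Cell Ranger 4 made the BMD and DMD files and 6.0.1 the WT file, an aggregate of 3 libraries from which only the WT barcodes were used and in which BMD and DMD hold 76.1% and 92.9% of the UMIs of their own files. From these counts, the 9964 WT, 6810 BMD and 7890 DMD barcodes with most UMIs were kept and the rule was applied. UMIs were summed per library and class, genes with at least 100 UMIs were kept, and classes were compared with edgeR 4.0.16 (quasi-likelihood, library as block, Benjamini-Hochberg, R 4.3.3), with DESeq2 1.42.0 as alternative. Sums of the 2 classes of a library come from the same animal tissue. The labels do not say how many animals each library holds. The p-values thus measure the spread of the class difference over 3 libraries, each of another genotype. They also rest on all genes tested, since edgeR draws the spread of each gene toward that of all. In simulated data for this comparison the edgeR step was tested with known fold changes, and no outcome of that is given here. Genotypes were compared by ratios of CPM with exact intervals (95%), the 2-fold counts on CPM plus 5 over genes with at least 50 UMIs. Doublets were scored with Scrublet in scanpy 1.11.5 and kept, except in an alternative.

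Named genes were those of the rule and of 22 lists, the 12 highest and 12 lowest genes between classes (adjusted p under 0.05, 1 direction in all 3 libraries, at least 30 UMIs observed or expected in members) and the 6 highest and 6 lowest between genotypes (by the ratio nearer 0 of BMD and DMD). Txnip was chosen after its values were seen, as were the ribosomal, mitochondrial and Gadd45 lists. Members and lists were chosen with earlier results of these data known. Of 293 list genes, 11 were not analysed here and 68, with under 100 UMIs or part of the rule, were not tested. Promoter sequences came from RefSeq (GRCr8) for 2 of 2 genes, and no coordinates were carried between builds.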

Additional observations from a re-analysis of the deposited data

Results flagged for a closer look

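Among the named and listed genes, 5 had counting intervals above WT in members of 1 dystrophic library and below it in the other. With 1 library per genotype, the difference between BMD and DMD was not tested. Cryab, a small heat shock protein, had a log2 ratio to WT members of 0.54 (BMD) and -0.54 (DMD). For Hspb1, of the same family, it was 1.40 and -0.45. For Fabp3, the fatty acid binding protein of heart, it was 0.26 and -0.56, but the BMD value turned to -0.43 with members at 0.5% or more and to -0.057 without nuclei holding other cell types' markers, where BMD and DMD no longer lay on opposite sides. For Gadd45g it was 0.85 and -0.71, and a single nucleus held 26.6% of the Gadd45g UMIs of WT members. With nuclei thinned to 1000 UMIs its DMD value turned to 0.029. Myh6 went the other way, with -0.64 in BMD and 0.64 in DMD.

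Some nuclei outside the cardiomyocyte rule also met the peptide condition. They were 5 of 7753 in WT, 37 of 5177 in BMD (0.715%) and 39 of 6649 in DMD (0.587%), a signal outside the nuclei described that was above the WT level in both dystrophic libraries. Free RNA held more peptide transcripts in those 2 libraries as well, with 0.281% of its UMIs in BMD and 0.191% in DMD against 0.0434% in WT, and its part in these nuclei was not tested.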

How the results depend on the processing

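No paired analysis was possible because each genotype has 1 library and the labels give no replicate numbers that pair samples; the library block within libraries was part of the test between classes. Genes higher and lower in members numbered 453 and 284. They numbered 133 and 73 by DESeq2's Wald test, 0 and 0 with no library block, 81 and 60 with nuclei thinned to 1000 UMIs and 709 and 428 with at least 0.5% peptide UMIs. Against other cardiomyocytes with 0 peptide UMIs 287 were higher. Leaving out a library gave 144 to 525 higher and 84 to 294 lower, with the fewest without BMD. The share of cardiomyocytes in the class was 0.814, 5.33 and 4.996% (WT, BMD, DMD) at 0.5%, and 10.3, 39.1 and 41.5% thinned. With nuclei of at least 2500 UMIs it was 28.7% in BMD and 29.5% in DMD, and without nuclei with over 5 UMIs of other cell types' markers 28.3% in DMD. The Nppa share of peptide UMIs in WT was 34.5% thinned and 43.3% with cardiomyocyte genes at 2% or more. In BMD it was 43.7% at 0.5%, 50.6% without nuclei holding other markers and 49.9% without the nucleus with most peptide UMIs. In DMD it was 64.1% at 0.5%, 50.9% thinned, and 56.6% and 56.7% without nuclei over 5% and 0.5% mitochondrial UMIs. Genes 2-fold higher in BMD members numbered 67 of 3186 thinned and 143 of 2083 at 0.5%, beside 135 of 6122. Those 2-fold lower numbered 24 of 3186 thinned, 45 of 2083 at 0.5% and 98 of 6122 by the mean of CPM over nuclei, beside 56 of 6122. In DMD, 53 of 816 genes were higher and 26 lower at 0.5%, and 45 of 2693 lower thinned, beside 83 and 84 of 4845. The share of genes that were higher or lower thus rose at 0.5%, although all of these counts but that of genes higher in BMD fell. At 0.5%, where WT had 18 members, the log2 ratio over WT turned to -0.43 for Ccdc3, -0.24 for Lrrc7, 0.083 for Gxylt2 and -0.050 for Txnip in BMD, to -0.43 for Fabp3 in BMD, and to -0.58 for Txnip and -3.31e-05 for Ankrd1 in DMD. In DMD Gadd45g turned to 0.029 thinned and Xirp2 to -0.015 by the mean of CPM, and in BMD Fabp3 to -0.057 without nuclei holding other markers. The cause was not tested.

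The 92 genes given with a difference between classes were tested again under each alternative where they had enough UMIs. Of these results, 1331 kept their side of the threshold, 232 lost the call, 29 gained it (among them Corin, Pcsk6, Bag3, Ryr2, Mef2c and Myh7) and 1 reversed, Npr3 at 0.5% (-0.72). Of those between genotypes, 628 moved by less than their counting error, 82 moved by more and 10 reversed, as given above. Alternatives on mitochondrial UMIs over 0.5%, on other cell types' markers and on the nucleus with most peptide UMIs were chosen after seeing the data. Depth limits WT values most, since 100 nuclei carry them, and genes under 100 UMIs were not tested.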

Other observations

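Genes for ribosomal proteins, a list added after the data were seen, were higher in the peptide-rich nuclei. Of 60 tested, 33 rose and 0 fell, beside 4.89% higher and 3.06% lower over all genes, with a median log2 difference of 0.75. Without BMD 10 of 49 rose, with a median of 0.45, without WT 27 of 49 and without DMD 37 of 53. DESeq2's Wald test called 15 of 60, and 5 of 34 rose with nuclei thinned to 1000 UMIs. Over all ribosomal protein genes the summed level was 3438, 2708 and 2088 CPM in members of WT, BMD and DMD and 1968, 1331 and 1847 CPM in other cardiomyocytes. As a ratio, the step was widest in BMD and smallest in DMD. Of 13 genes of the mitochondrial genome, added in the same way, 4 rose and 0 fell, beside the same shares over all genes. Such transcripts are cytoplasmic and mitochondrial, and how much of them reached these nuclei from outside was not tested.

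Members with more Nppa than Nppb were set beside those with more Nppb, a split of nuclei chosen after the data were seen. In WT, Gadd45g stood at 241 CPM in the first and 621 CPM in the second group, on 39 and 104 UMIs. A single nucleus gave a large part of those in the second group. Gadd45g stood at 546 and 1208 CPM in BMD and at 233 and 340 CPM in DMD, again higher in the second group. Myl4, the atrial light chain, went the other way. It stood at 49.3 and 11.9 CPM in WT, on 8 and 2 UMIs, at 29.4 and 10.3 CPM in BMD and at 32.6 and 10.5 CPM in DMD. In DMD a single nucleus held 43.3% of the Myl4 UMIs. These are values with no test.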
